A study of Mus musculus with 8 samples.

Results

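AP-1 is a dimeric transcription factor built from proteins of the Fos and Jun families, and its 7 subunit genes in the mouse (Fos, Fosb, Fosl1, Fosl2, Jun, Junb and Jund) are described here in Lgr5-traced cells of injured skin. The genes were picked by symbol through the Ensembl identifiers of the deposited count table. They are 7 of the 46078 genes listed, and all 7 were among the 16495 genes with enough counts to be tested. RNA came from cells sorted by flow cytometry out of mouse epidermis. All mice are labelled Lg5-egfp-ires-creert2/R26-tdTomato, a strain in which the Lgr5 gene drives EGFP and a tamoxifen-dependent Cre recombinase that switches on a tdTomato reporter, so that descendants of Lgr5-expressing follicle stem cells stay marked. All groups also shared a skin injury, and no uninjured group is analysed here. The conditions were Treg-sufficient, with regulatory T cells (n = 4 libraries), and Treg-depleted, without them (n = 4). Experiment 1 supplied replicates 1 and 2 of either condition, and experiment 2 supplied replicates 3 and 4. The sources used here do not give the means of depletion, the kind of injury, the times or the age of the mice. Nor do the labels tie replicates to separate animals, so the p-values speak only for the spread of these libraries, which may be partly technical.

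Fos proteins need a Jun partner to bind DNA, whereas Jun proteins can also pair with each other, and the dimers bind the AP-1 site TGAGTCA and related sequences. Fos, Fosb, Jun and Junb are immediate early genes, switched on within minutes by factors already present in the cell after growth factors, cytokines, stress or tissue dissociation, while Fosl1, Fosl2 and Jund tend to follow later or to be expressed more steadily. In epidermis, AP-1 controls keratinocyte proliferation, differentiation and the wound response, with Jun best known for promoting growth and Junb for restraining it and limiting inflammation.

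Library totals over genes ran from 22330729 to 29975347 counts, and no subunit had fewer than 133 counts in any library, the lowest being Fosl1. The 8 libraries were not alike in other respects. Xist, which marks an inactivated X chromosome and so female cells, stood at 2713 CPM (counts scaled to the library total) in Treg-sufficient replicate 2, at 72.0 in Treg-depleted replicate 2 and at 0.967 to 2.26 in the other 6. Replicate 2 of either condition is called a library with Xist reads below, although the other 6 held a few. Genes with at least 1 count numbered 19593 in Treg-sufficient replicate 3 and 18605 in Treg-depleted replicate 2, against 21720 to 23062 elsewhere. The 12 markers of Lgr5-traced follicle cells were all well expressed, with summed levels of 18989 to 28924 CPM in Treg-sufficient and 16110 to 31235 in Treg-depleted libraries. Of cell types other than keratinocytes, melanocyte markers were highest in sum, at 31.5 to 366 CPM in Treg-sufficient and 18.4 to 171 in Treg-depleted libraries. Summed T cell markers reached at most 38.3 CPM and macrophage markers at most 5.67, with Cd3e at no more than 2 counts and Ptprc at no more than 11. Other markers of these lists were higher, with Trbc2 at 369 to 715 counts, Thy1 at 189 to 413 and Cd68 at 42 to 131. Of 4 regulatory T cell markers, Foxp3, the defining factor, had at most 22 counts in any library and Ikzf2 had 129 to 1053. Their sum was 5.64 to 14.5 CPM in Treg-sufficient and 6.64 to 36.9 CPM in Treg-depleted libraries. In sorted epithelial cells these values do not check the depletion. Within experiment 1 the sum of 5 markers of interfollicular differentiation was 1266 and 1083 CPM in the Treg-sufficient and 686 and 139 in the Treg-depleted libraries, and that of 7 fibroblast markers 90.1 and 37.0 against 18.9 and 19.9. The part of these differences in the AP-1 values was not tested.

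The promoters of Fos, Fosb and Jun are shown because these 3 genes had the widest differences between conditions among those whose 4 Treg-depleted libraries all lay above the 4 Treg-sufficient ones. Each line gives the bases before the transcription start, 5′ to 3′ on the gene's strand, from RefSeq on GRCm38.p6, with matches to the motifs searched in capitals. The Fosb line has 244 bases and stops at the GENCODE start, 6 bases upstream of the RefSeq one. The windows are chr12:85473640-85473889 on the plus strand for Fos, chr7:19310052-19310295 on the minus strand for Fosb and chr4:95052223-95052472 on the minus strand for Jun.
Fos: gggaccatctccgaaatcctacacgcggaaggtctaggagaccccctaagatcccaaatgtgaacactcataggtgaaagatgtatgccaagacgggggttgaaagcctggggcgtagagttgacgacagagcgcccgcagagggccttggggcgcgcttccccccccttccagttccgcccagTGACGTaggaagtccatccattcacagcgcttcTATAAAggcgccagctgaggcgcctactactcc
Fosb: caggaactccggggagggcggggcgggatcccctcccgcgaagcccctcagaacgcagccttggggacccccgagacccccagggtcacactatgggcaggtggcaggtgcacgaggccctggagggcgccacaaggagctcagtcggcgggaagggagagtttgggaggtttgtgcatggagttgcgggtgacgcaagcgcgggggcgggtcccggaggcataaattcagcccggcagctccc
Jun: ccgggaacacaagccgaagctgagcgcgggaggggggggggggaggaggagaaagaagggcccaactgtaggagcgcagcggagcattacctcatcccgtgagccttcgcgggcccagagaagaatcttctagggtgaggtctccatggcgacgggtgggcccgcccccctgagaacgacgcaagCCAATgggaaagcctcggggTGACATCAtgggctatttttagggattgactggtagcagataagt
In the Fos window, the core of the cyclic AMP response element, TGACGT, stood 66 to 61 bases before the start, and a TATA box, TATAAA, 33 to 28 bases before it. The Jun window held TGACATCA, a variant AP-1 element of this promoter, 45 to 38 bases before the start, and a CCAAT box 65 to 61 bases before it. None of the motifs searched was in the Fosb window. Both strands were searched for the AP-1 site TGAGTCA, for the full cyclic AMP response element TGACGTCA and its core TGACGT, which lies within it, for the variant TGACATCA, for the boxes CCAAT and TATAAA, and for the CArG box bound by serum response factor. Among 32851 RefSeq windows of 250 bases, 6.47% held TGACGT, 2.93% TGACATCA, 12.4% TATAAA, 33.8% CCAAT, 4.46% TGAGTCA, 1.55% TGACGTCA and 1.47% a CArG box. Such matches describe the letters in these windows and not binding. Sequence further upstream was not searched, so the lack of a match, as for the CArG box, holds only within the windows.

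Fos, the founding member of the family, stood at 664, 125, 706.8 and 946 CPM in the Treg-sufficient libraries, given here and below in the order of replicates 1 to 4. Its Treg-depleted levels were 2283, 1537, 1568 and 1110.4 CPM. All Treg-depleted libraries were above all Treg-sufficient ones, and Treg-sufficient replicate 2 was the lowest by a wide margin. Mean levels were 610.3 ± 346 CPM (SD, n = 4) and 1624 ± 486 CPM (SD, n = 4), a log2 fold change of 1.49 (SE 0.53) whose adjusted p was 0.686 (edgeR quasi-likelihood test, Benjamini-Hochberg over 16495 genes). In these bulk libraries more cells expressing a gene and more RNA per cell cannot be told apart.

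Fosb, whose protein is a close relative of Fos with the same immediate early induction, had the largest fold change of the 7 genes. The Treg-sufficient libraries had 189.9, 28.8, 152 and 247 CPM, and the Treg-depleted ones 890.2, 553, 504 and 297 CPM. Again no Treg-depleted library fell within the Treg-sufficient range, although the lowest of them was close to the highest of the other group. The log2 fold change was 1.86 (SE 0.60), with an adjusted p of 0.686 by edgeR.

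Fosl1 and Fosl2 encode the Fos-related antigens Fra-1 and Fra-2. Fosl1 was the scarcest of the 7, at 9.22, 4.54, 6.63 and 5.99 CPM in the Treg-sufficient and 11.9, 19.3, 9.56 and 5.78 CPM in the Treg-depleted libraries. Here the groups overlapped, since Treg-depleted replicate 4 lay below 3 of the 4 Treg-sufficient libraries (log2 fold change 0.73, SE 0.32, adjusted p = 0.696 by edgeR). Fosl2 was the steadiest member: 173, 172, 144 and 191 CPM in Treg-sufficient and 192, 206, 196 and 192 CPM in Treg-depleted libraries. Its highest level was 1.42 times its lowest, against 18.3 times for Fos and 30.9 times for Fosb. The 4 Treg-depleted libraries were nevertheless all higher, the nearest pair being 191.6 and 191.1 CPM, and the log2 fold change was 0.21 (SE 0.10, adjusted p = 0.696 by edgeR).

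Jun encodes the partner that Fos proteins need and can also act as a homodimer. It stood at 213, 119.6, 278 and 317 CPM in the Treg-sufficient libraries and at 603, 499, 416 and 407 CPM in the Treg-depleted ones. The groups did not overlap, and the order followed the experiments: among Treg-sufficient libraries both of experiment 2 were above both of experiment 1, and among Treg-depleted libraries both were below. Of the 7 genes, Jun ranked highest by p between conditions (log2 fold change 1.10, SE 0.28, adjusted p = 0.686 by edgeR).

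Junb, the growth-restraining relative of Jun, had 128, 52.9, 148 and 134 CPM in Treg-sufficient and 317, 330.1, 161 and 139.9 CPM in Treg-depleted libraries. Both Treg-depleted libraries of experiment 1 stood far above the remaining 6, while those of experiment 2 were within or just above the Treg-sufficient range. Jund, usually the steadily expressed Jun gene, showed the same division more sharply. It had 41.4, 33.0, 37.0 and 42.8 CPM in Treg-sufficient libraries and 100.4, 88.3, 38.2 and 36.5 CPM in Treg-depleted ones. Over both experiments the log2 fold changes were 0.97 (SE 0.39) for Junb and 0.63 (SE 0.27) for Jund, with adjusted p of 0.694 and 0.696 by edgeR.

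**Figure D1:**
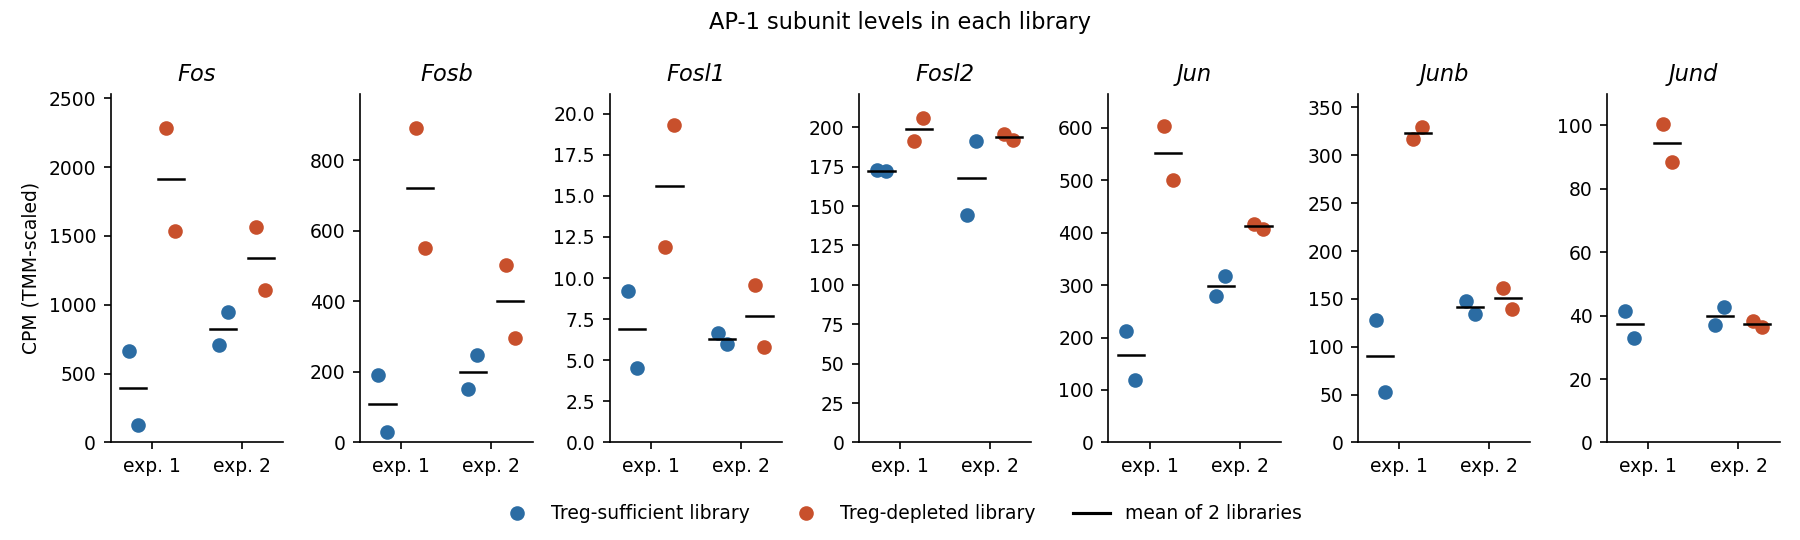
Level of each AP-1 subunit in CPM scaled by TMM factors (y axis, a separate linear scale from 0 for each gene), by experiment (x axis), with 1 point per library and a bar at the mean of 2 libraries. In experiment 1 the Treg-depleted points are above the Treg-sufficient points for all 7 genes, and in experiment 2 the same holds for Fos, Fosb, Fosl2 and Jun.

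Over both experiments together, 0 of the 7 genes passed the threshold of an adjusted p under 0.05 in the edgeR test, and neither did any other gene (0% of 16495). At an unadjusted p under 0.05 there were 6 of the 7, all but Fosl2 and all higher in Treg-depleted libraries, against 7.12% of all genes tested in either direction and 3.5% in that direction. The 7 genes share these libraries and were chosen with earlier results of these data known. Such counts, here and below, are therefore not of separate observations. The median log2 fold change of the 7 was 0.97, beside 0.00 for all genes tested. Their 4 Treg-depleted libraries lay above the 4 Treg-sufficient ones for 4 of the 7 (Fos, Fosb, Fosl2 and Jun), as they did for 1.27% of genes tested. DESeq2 called 1 of the 7, Jun, with an adjusted p of 0.0161, beside 58 genes higher and 41 lower of the 14699 it tested. By limma-voom 0 of the 7 passed. Without Treg-sufficient replicate 2, the library that was lowest for 6 of the 7 genes and highest in Xist, the log2 fold changes were 1.00 for Fos, 1.34 for Fosb, 0.45 for Fosl1, 0.19 for Fosl2, 0.80 for Jun, 0.55 for Junb and 0.38 for Jund. For Fosl1, Junb and Jund those are less than the full values by over 1.5 times. So were Fosl1 without Treg-depleted replicate 2 (0.47) and Fosl2 without Treg-sufficient replicate 3 (0.13).

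Within experiment 1, Jun and Jund rose in Treg-depleted cells, the only 2 of the 7 past the threshold, where 0.606% of genes tested passed in either direction and 0.224% in this one. Jun averaged 166 ± 66.2 CPM (SD, n = 2) in Treg-sufficient and 551 ± 73.5 CPM (SD, n = 2) in Treg-depleted libraries, and its log2 fold change was 1.73 (SE 0.26, adjusted p = 0.0416 by edgeR). Jund averaged 37.2 ± 5.95 and 94.4 ± 8.57 CPM, for a log2 fold change of 1.34 (SE 0.16) and an adjusted p of 0.0237 by edgeR. Both Treg-depleted libraries were above both Treg-sufficient ones for 7 of 7 genes, a pattern that 18.6% of genes tested showed.

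The other 5 genes did not pass in experiment 1, although Fos and Fosb had larger fold changes than Jun and Jund. Their log2 fold changes were 2.28 (SE 0.66) for Fos, 2.72 (SE 0.77) for Fosb, 1.18 (SE 0.42) for Fosl1 and 0.20 (SE 0.16) for Fosl2, with adjusted p of 0.213, 0.199, 0.329 and 0.735 by edgeR. Leaving out Treg-sufficient replicate 1 gave 1.78 for Fosl1 and leaving out Treg-sufficient replicate 2 gave 0.72. Leaving out Treg-depleted replicate 2 gave 0.75 for Fosl1 and 0.12 for Fosl2. Junb came nearest, at 1.84 (SE 0.35, adjusted p = 0.0687). The Treg-sufficient pair itself differed widely for the immediate early members: Fos was 664 and 125 CPM, and Fosb 189.9 and 28.8 CPM. DESeq2 called Fosb (adjusted p = 0.0424) and Junb (adjusted p = 2.33e-06) as well as Jun and Jund. Of all 16765 genes it tested in experiment 1, DESeq2 called 229 higher and 476 lower.

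The calls for Jun and Jund in experiment 1 depended on single libraries. Jund kept its call without Treg-depleted replicate 2 (adjusted p = 0.0137) and lost it without any 1 of the other 7 libraries, with adjusted p of 0.0526 to 0.102 by edgeR. Jun kept it without Treg-sufficient replicate 1 (adjusted p = 0.0255) or Treg-depleted replicate 2 (adjusted p = 0.0282) and lost it without any of the other 6, at 0.0778 to 0.0917. A fit of only the 4 libraries of that experiment ended both calls (adjusted p = 0.269 for Jun and 0.210 for Jund by edgeR), while limma-voom and DESeq2 on all 8 made both. The log2 fold changes moved less, from 1.33 to 2.20 for Jun and from 1.15 to 1.51 for Jund, and were lowest for both without Treg-sufficient replicate 2. Without Treg-sufficient replicate 1, the log2 fold changes of Fos, Fosb and Junb were 3.93, 4.65 and 2.61. The lone Treg-sufficient library of that experiment was then replicate 2, assumed to vary like the other groups. Without both libraries with Xist reads, the log2 fold changes were 1.46 for Jun, 1.27 for Junb and 1.23 for Jund, each group of experiment 1 then holding 1 library.

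**Figure D2:**
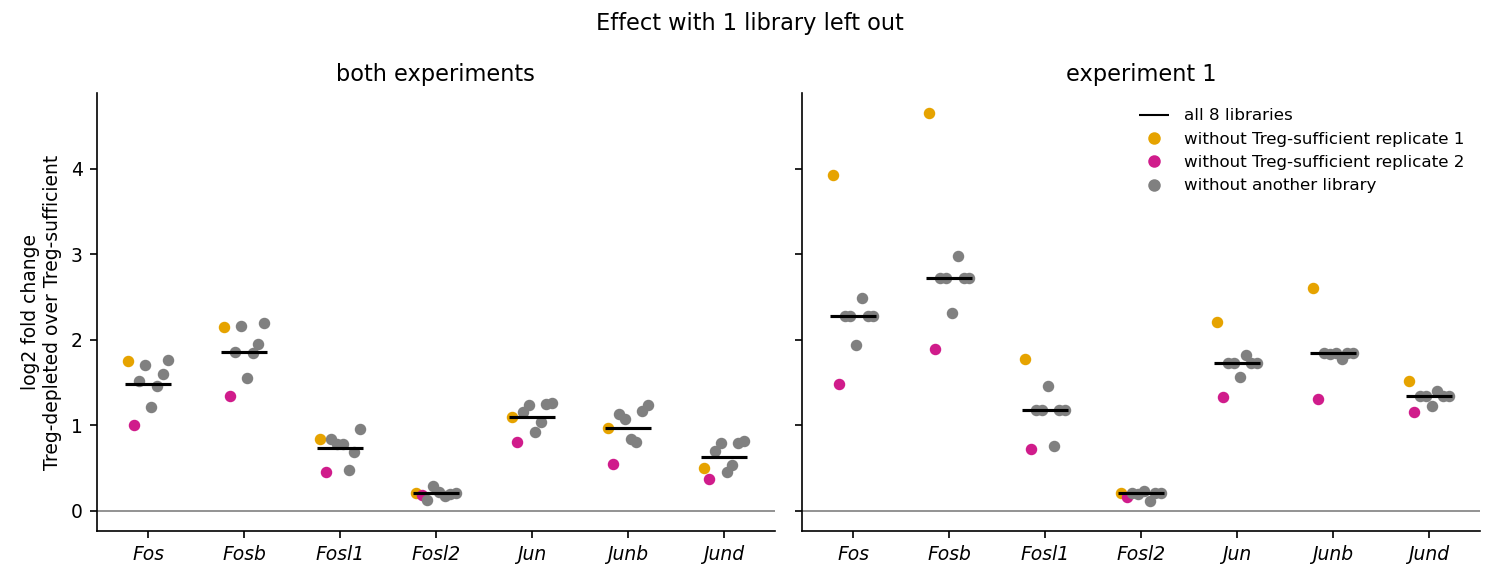
Log2 fold change, Treg-depleted over Treg-sufficient (y axis), of each subunit (x axis) with 1 library left out at a time (points) and with all 8 (black bars), for both experiments together (left) and for experiment 1 (right). All points lie above 0, and in experiment 1 those without Treg-sufficient replicate 1 are highest for Fos (3.93) and Fosb (4.65) while those without Treg-sufficient replicate 2 are lowest for both (1.49 and 1.89).

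In experiment 2, 0 of the 7 passed by edgeR (0% of genes tested) and 0 reached an unadjusted p under 0.05 (1.75% of genes tested). DESeq2 and limma-voom also called 0. Fos averaged 826 ± 169 and 1339 ± 323 CPM (SD, n = 2 each), Fosb 199.7 ± 66.8 and 400.2 ± 146 CPM and Jun 298 ± 27.0 and 412 ± 6.88 CPM in Treg-sufficient and Treg-depleted libraries. The log2 fold changes were 0.70 (SE 0.63), 1.00 (SE 0.73) and 0.47 (SE 0.26) for these 3 genes. They were 0.28 (SE 0.42) for Fosl1, 0.21 (SE 0.16) for Fosl2, 0.09 (SE 0.34) for Junb and -0.09 (SE 0.16) for Jund. Single libraries moved several of these: without Treg-depleted replicate 3 Fos was 0.43, Fosb 0.57 and Fosl1 -0.13, without Treg-depleted replicate 4 Fosl1 was 0.60, and leaving out Treg-sufficient replicate 3 or 4 gave Fosl2 values of 0.02 or 0.42. For Fos, Fosb, Fosl2 and Jun both Treg-depleted libraries were above both Treg-sufficient ones, 4 of 7 genes beside 16.7% of genes tested. The same 4 showed this in each experiment, as did 3.79% of genes tested.

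The difference between the experiments in the effect of Treg depletion was tested directly, as an interaction, and 0 of the 7 passed by edgeR (0% of genes tested). At an unadjusted p under 0.05 there were 3, against 5.6% of genes tested: Jund (log2 difference -1.44, SE 0.23, adjusted p = 0.180), Junb (-1.75, SE 0.48, adjusted p = 0.526) and Jun (-1.26, SE 0.36, adjusted p = 0.557). Fos, Fosb and Fosl1 had differences of -1.58 (SE 0.89), -1.72 (SE 1.03) and -0.90 (SE 0.59), and Fosl2 one of 0.00 (SE 0.22). These depended on the Treg-sufficient libraries of experiment 1: without replicate 1 the values were -3.24 for Fos, -3.64 for Fosb and -1.49 for Fosl1, and without replicate 2 they were -0.79, -0.89 and -0.44. Fosl1 was also -0.47 and -0.58 without Treg-depleted replicates 2 and 4. With 1 library left out Jun ran from -1.74 to -0.87, Junb from -2.52 to -1.21 and Jund from -1.61 to -1.25, and Junb passed without Treg-sufficient replicate 1. DESeq2 called 2, Junb and Jund, beside 134 genes higher and 52 lower among all genes, and limma-voom called 0 of the 7. The difference was negative for 6 of the 7 genes, and kept that sign for those 6 with any 1 library left out, without passing the edgeR test on all 8 libraries. The median of the 7 was -1.44, beside -0.01 for all genes tested, with quartiles of -0.27 and 0.32. All 7 genes were measured in the same libraries, so their signs are not separate observations.

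Between the experiments, averaged over conditions, 0 of the 7 differed past the threshold, beside 1.62% of genes tested, and 1 (Jund) had an unadjusted p under 0.05, beside 22%. Log2 fold changes of experiment 2 over experiment 1 ran from -0.62 (SE 0.27) for Jund to 0.28 (SE 0.52) for Fos, and the median of the 7 was -0.04 beside -0.02 for all genes tested. The sum of 5 melanocyte markers also divided the experiments, at 18.4 to 54.1 CPM in experiment 1 and 124 to 366 CPM in experiment 2, and its part in these values was not tested.

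**Figure D3:**
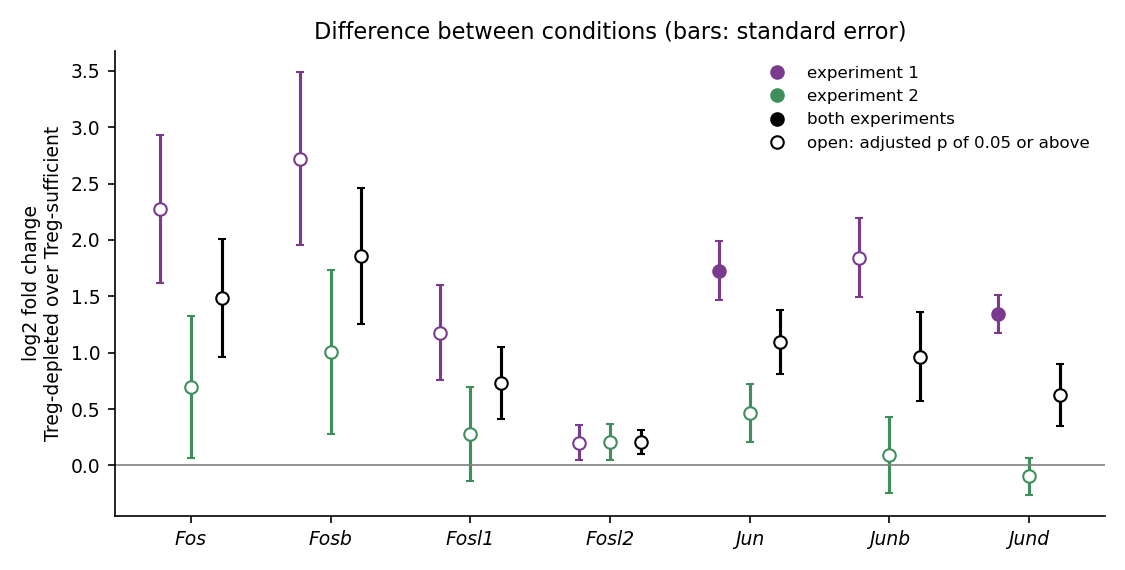
Log2 fold change, Treg-depleted over Treg-sufficient (y axis), of each AP-1 subunit (x axis) in experiment 1, experiment 2 and both together, with bars of 1 standard error. Filled points have an adjusted p under 0.05, which only Jun (1.73) and Jund (1.34) reached, in experiment 1, and with all 8 libraries Fosl2 is at 0.20, 0.21 and 0.21.

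Levels can be compared between genes only per length, here CPM per kilobase of merged exons. That length takes in the exons of all annotated transcripts, 7 for Fosb against 1 each for Jun and Jund. Genes with several transcripts may thus be understated, in the order here and in the shares below. On that scale Fos was the most abundant subunit transcript in both conditions, at 259 ± 147 (SD, n = 4) in Treg-sufficient and 691 ± 207 (SD, n = 4) in Treg-depleted libraries. Jun followed at 72.8 ± 27.0 and 151 ± 28.6, then Junb at 50.3 ± 18.6 and 103 ± 43.6 and Fosb at 24.7 ± 14.8 and 89.8 ± 39.4. Jund had 23.1 ± 2.67 and 39.5 ± 20.0, Fosl2 17.6 ± 1.98 and 20.3 ± 0.689, and Fosl1 3.24 ± 0.962 and 5.72 ± 2.80. The order of the means was thus the same in both conditions. Neighbours that differed by less than the larger of their SDs were Jun and Junb and then Fosb and Jund in Treg-sufficient libraries, and Junb and Fosb and then Jund and Fosl2 in Treg-depleted ones.

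The summed level of the 7 transcripts per kilobase was 482, 158, 517 and 648 in Treg-sufficient and 1526, 1126, 996 and 753 in Treg-depleted libraries. Fos alone made up 58.5, 33.6, 58.1 and 62.1% of that sum in Treg-sufficient libraries and 63.6, 58.0, 66.9 and 62.7% in Treg-depleted ones. Treg-sufficient replicate 2, the library with the lowest sum, stood apart from the other 7, whose shares of Fos overlapped between conditions. In it the 3 Jun genes together held 50.8% of the sum, against 22.4 to 33.6% in the others, and Fosl2 held 11.2%, against 1.30 to 3.71%. Fosb took 6.31, 2.91, 4.72 and 6.11% in Treg-sufficient and 9.34, 7.86, 8.10 and 6.31% in Treg-depleted libraries, with no Treg-depleted library below the Treg-sufficient ones and Treg-depleted replicate 4 level with Treg-sufficient replicate 1 at this rounding.

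**Figure D4:**
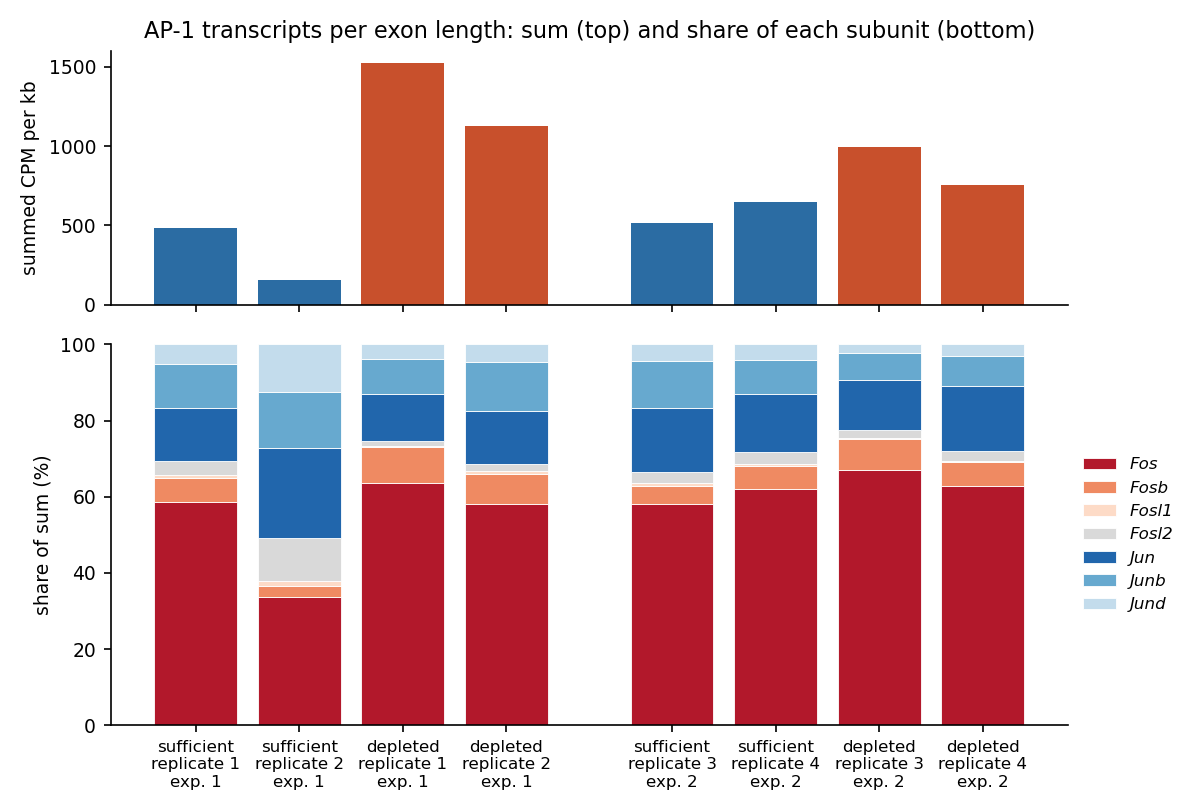
Summed CPM per kilobase of exon of the 7 AP-1 subunits (top, y axis) and the percentage of that sum from each subunit (bottom, y axis) in each library (x axis, experiment 1 on the left). The sum is highest in Treg-depleted replicate 1 (1526) and lowest in Treg-sufficient replicate 2 (158), where the share of Fos is also lowest (33.6%).

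Egr1, an immediate early zinc finger gene outside the family, is set beside the subunits because it answers to many of the same signals. It had 246, 185, 372 and 615 CPM in Treg-sufficient and 1399.5, 1098, 793 and 695 CPM in Treg-depleted libraries, with no overlap, and rose in experiment 1 (log2 fold change 2.54, SE 0.28, adjusted p = 0.0167 by edgeR). Over both experiments its log2 fold change was 1.56 (SE 0.40, adjusted p = 0.686), close in size to that of Fos. DESeq2 called it in both comparisons. The call in experiment 1 was lost by edgeR without Treg-sufficient replicate 1 or 2 or Treg-depleted replicate 3 or 4, at adjusted p of 0.0515 to 0.0812, and in a fit of only the 4 libraries of that experiment (0.191).

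Genes around AP-1 were taken from lists of known partners, regulators and targets, chosen like the subunits with earlier results of these data known. Of 13 further bZIP proteins that can pair with AP-1 subunits, 10 were tested and 0 passed in either direction, in any of the 5 comparisons by edgeR. Between conditions 3 had an unadjusted p under 0.05, beside 7.12% of genes tested. DESeq2 called Maff and Mafk, small Maf proteins, higher in Treg-depleted libraries over both experiments and in experiment 1, where it also called Atf3. The log2 fold changes of the 10 between conditions were positive for 8 and negative for 2, with a median of 0.21 beside 0.00 for all genes tested. Atf3, a stress-induced partner of Jun, stood at 222, 29.8, 256 and 307 CPM in Treg-sufficient and 1166, 731, 519 and 321 CPM in Treg-depleted libraries. As with Fos, the groups did not overlap and Treg-sufficient replicate 2 was far below the rest (log2 fold change 1.75, SE 0.69, adjusted p = 0.694 by edgeR, and 1.13 without that library). Atf4, the mediator of the integrated stress response, averaged 187 ± 16.6 and 296 ± 47.0 CPM (SD, n = 2 each) in experiment 1, without overlap (log2 fold change 0.66, SE 0.18, adjusted p = 0.180 by edgeR), and its log2 fold change in experiment 2 was -0.06 (SE 0.18). Over both experiments it was 0.30 (SE 0.17), and that of Atf7, a relative of Atf2, was 0.25 (SE 0.15).

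Taken as a list, the transcription factors that switch on Fos and Jun showed no common direction between conditions. Of 13 listed, 12 were tested, 6 with a positive and 6 with a negative log2 fold change and a median of 0.01. By edgeR 0 passed in any of the 5 comparisons. Between conditions 3 had an unadjusted p under 0.05, beside 7.12% of genes tested. All 3 were higher in Treg-depleted libraries, at log2 fold changes of 0.32 to 0.46. Srf was 1 of them, at 77.6 to 90.1 CPM in Treg-sufficient and 95.8 to 133 CPM in Treg-depleted libraries. DESeq2 called Srf and Stat3 higher in Treg-depleted libraries in experiment 1, and 3 of the 12 between experiments. Among all genes it called 229 higher and 476 lower in experiment 1, and 1119 higher and 908 lower between experiments. Creb1, which binds the cyclic AMP response element, stood at 139 ± 12.2 and 137 ± 8.76 CPM (SD, n = 4 each) in Treg-sufficient and Treg-depleted libraries, and Elk4, a partner of serum response factor, at 125 ± 17.9 and 122 ± 16.5 CPM. Stat3, which carries cytokine signals, had 239.8 ± 41.2 and 349.5 ± 146 CPM (log2 fold change 0.46, SE 0.18, adjusted p = 0.692 by edgeR). Among kinases that phosphorylate AP-1 or its activators, 19 of 20 were tested, with 10 positive and 9 negative values, a median of 0.00 and 0 past the threshold in the 5 comparisons by edgeR. Between conditions 1 had an unadjusted p under 0.05, beside 7.12% of genes tested, and DESeq2 called 0 there and 1 between experiments. Mapk3, which encodes ERK1, had 190.5 ± 19.8 and 183 ± 5.73 CPM and Map3k1, an upstream activator of JNK, 138 ± 13.3 and 159.6 ± 27.1 CPM (SD, n = 4 each) in Treg-sufficient and Treg-depleted libraries. These are transcript levels and carry no information on kinase activity.

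Transcripts of several immediate early genes are short-lived because proteins of the Zfp36 family bind AU-rich elements in their 3′ UTRs and recruit decay enzymes. A stretch of 30 bases is shown for Fos and for Jun from the gene's longest annotated 3′ UTR (GENCODE M21). It is the first with the most copies of the pentamer ATTTA, 2 in each stretch, in capitals.
Fos: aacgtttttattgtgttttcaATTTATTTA
Jun: gtgatcATTTAtaatcataggaaagATTTA
The Fos stretch covers bases 632 to 661 after the stop codon and the Jun stretch bases 1028 to 1057. ATTTA occurred 4.91 times per kilobase of 3′ UTR in Fos, 4.12 in Junb and 3.24 in Jun, densities that 6.2%, 9.56% and 16.7% of 13434 tested protein-coding genes reached or passed. It occurred 1.88 times per kilobase in Jund, 1.72 in Fosl2, 1.57 in Fosl1 and 0.434 in Fosb, beside a median of 1.29. The longer element TTATTTATT was found in Fos and Fosl2, 1 copy each, and in 8.22% of genes. The density was thus lowest in Fosb among the 7. Such counts describe the letters of these 3′ UTRs, and neither binding nor decay of the transcripts was tested.

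Of the 10 genes listed for turnover and restraint of AP-1, all were tested, 7 with a positive and 3 with a negative log2 fold change. In the 5 comparisons 0 passed by edgeR, and 2 had an unadjusted p under 0.05 between conditions, beside 7.12% of genes tested. In experiment 1 DESeq2 called Zfp36 and Zfp36l2 higher and Men1, which encodes the Jund-binding protein menin, lower in Treg-depleted libraries. Zfp36 itself had 300.2, 56.2, 221 and 251 CPM in Treg-sufficient and 1071, 964, 332 and 229 CPM in Treg-depleted libraries. Its high values were both in experiment 1, and the groups overlapped through Treg-depleted replicate 4 (log2 fold change 1.38, SE 0.61, adjusted p = 0.696 by edgeR, and 0.80 without Treg-sufficient replicate 2). Zfp36l2, a second member of the family, averaged 408 ± 20.95 and 857 ± 188 CPM (SD, n = 2 each) in experiment 1, a log2 fold change of 1.07 (SE 0.18) just outside the threshold (adjusted p = 0.0516 by edgeR) that passed without Treg-depleted replicate 2 (adjusted p = 0.0123). Ncor1, a corepressor that holds AP-1 target genes silent, had 299 ± 23.6 and 309 ± 31.7 CPM (SD, n = 4 each).

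Known AP-1 target genes of skin did not move as a group with the subunits. Of 25 listed, 21 were tested, with 10 positive and 11 negative log2 fold changes between conditions, a range from -2.37 to 0.81 and a median of -0.03. None passed in the comparison of conditions by edgeR, where 5 had an unadjusted p under 0.05, beside 7.12% of genes tested. DESeq2 called 1 there, Vegfa, higher in Treg-depleted libraries. In experiment 1 edgeR called 0, with 6 at an unadjusted p under 0.05, beside 11.1% of genes tested. In both comparisons such genes were some higher and some lower. DESeq2 called 5 of the 25 in experiment 1: Vegfa and Ccl2 higher, and Tnc, Gja1 and Mmp13 lower, the last too scarce for the edgeR test. Among all genes DESeq2 called 229 higher and 476 lower there. For the interaction DESeq2 called Ivl and Lor, which encode proteins of the cornified envelope. Cd44, the hyaluronan receptor, had 747 ± 77.8 and 771 ± 104 CPM in Treg-sufficient and Treg-depleted libraries, and Gja1, which encodes connexin 43, had 984 ± 346 and 689 ± 417 CPM (log2 fold change -0.67, SE 0.20, adjusted p = 0.686). Krt6a, a keratin of wounded epidermis, had 456 ± 242 and 419 ± 591 CPM, and because it has a near-identical copy its counts are uncertain. Between the experiments 3 of the 21 passed: Ccnd1, which encodes cyclin D1 (log2 fold change of experiment 2 over experiment 1 0.85, SE 0.17, adjusted p = 0.0485), and Gja1 (1.24, SE 0.20, adjusted p = 0.0439) were higher in experiment 2 and the chemokine gene Ccl2 (-1.61, SE 0.32, adjusted p = 0.049995) lower. These calls were edgeR's. limma-voom made the same 3, and DESeq2 called 10, with 3 higher and 7 lower, beside 1119 higher and 908 lower among all genes. Leaving out Treg-sufficient replicate 1 kept Ccnd1 and Gja1, and leaving out any 1 of the other 7 libraries ended all 3 calls, with adjusted p from 0.0524 to 0.187. For genes of all kinds edgeR called 0.903% higher and 0.721% lower in that comparison.

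**Figure D5:**
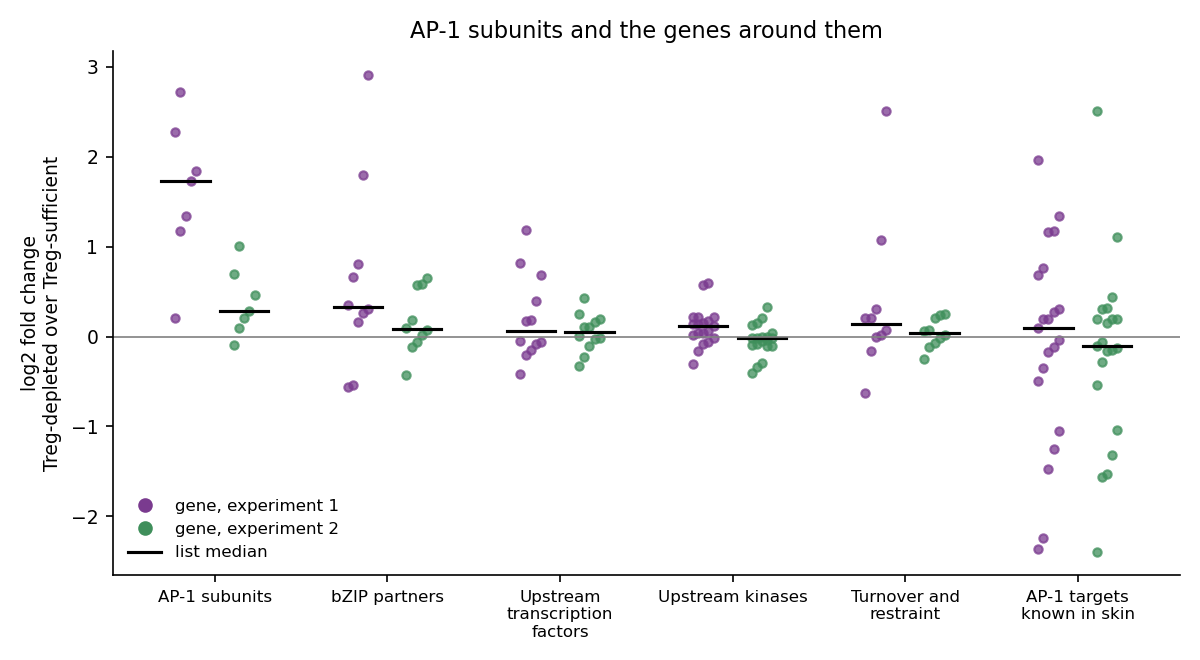
Log2 fold change, Treg-depleted over Treg-sufficient (y axis), of each tested gene in the AP-1 subunits and 5 lists around them (x axis), in experiment 1 (purple) and experiment 2 (green), with a bar at each median. The subunits' median is 1.73 in experiment 1 and 0.28 in experiment 2, and the medians of the 5 lists lie between -0.10 and 0.33.

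The genes whose levels over the 8 libraries were most like the mean of the 7 subunits (standardized log2 CPM, Pearson r as a description) were Nfkbiz (r = 0.987), Dusp1 (0.979), Csrnp1 (0.976), Klf6 (0.976), Foxn2 (0.971), Zfp36 (0.970), Btg2 (0.969), Atf3 (0.950), Tiparp (0.945) and Srf (0.943). Those most like Fos alone were Atf3 (0.990), Nr4a1 (0.986) and Ifrd1 (0.963). All points share the libraries, and Treg-sufficient replicate 2 is the lowest of the 8 on the mean of the subunits. Nfkbiz encodes an atypical inhibitor of NF-kappaB, Dusp1 a phosphatase of MAP kinases, and Srf the serum response factor that binds the CArG box. Their log2 fold changes in experiment 1 were 1.60, 2.46 and 0.69, and in experiment 2 they were 0.36, 0.61 and 0.11.

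Position limits what the counts of 4 of the 7 genes can show. On GRCm38, Fos lies on chromosome 12 (85473890 to 85477273, plus strand), Fosb on chromosome 7 (19302696 to 19310051, minus), Fosl1 on chromosome 19 (5447547 to 5455946, plus) and Fosl2 on chromosome 5 (32135801 to 32157842, plus). Jun lies on chromosome 4 (95049034 to 95052222, minus), and Junb (84974484 to 84978718, minus) and Jund (70698949 to 70700616, plus) both lie on chromosome 8. Jun, Junb and Jund are coded in a single exon. Genes on the opposite strand overlap Fosl1 (Ccdc85b, 58 to 153 counts), Jun (the antisense RNA Junos, ENSMUSG00000087366, 57 to 145 counts), Junb (Prdx2, 4460 to 8222 counts) and Jund (Gm11175, 0 counts). The library kit keeps strand, but the sources used here do not state the strand setting of the counting, so reads from the overlapping parts are uncertain for these 4.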

How the data were processed

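The members, the lists around them and the tests were chosen with earlier results of these data known. The authors deposited raw read counts per gene for 8 libraries, with no normalization. Per the labels' protocols, the kits were RNeasy for RNA and TruSeq Stranded mRNA for libraries. Build GRCm38.p4 is given per the submitters' processing notes, which also list HTSeq, SAMtools, DESeq2 and version 2 of TopHat2 without their roles. The sources used here state neither the annotation release nor the strand setting. Reads without a gene were left out of all fits: those in no gene made up 6.63 to 10.8%, ambiguous reads 2.72 to 3.01%, and multiply aligned reads 26.2 to 30.6%. Reads of near-identical genes are therefore undercounted.

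Symbols, exon lengths and 3′ UTRs came from GENCODE M21 (GRCm38), and promoters from RefSeq (GRCm38.p6). Of the 7 members, 6 had a promoter entry, and Fosl2 and Jund, whose GENCODE starts lie -671 and 1210 bases from the RefSeq ones (negative is upstream), were not searched or printed. Counts were analysed in R 4.3.3 with edgeR 4.0.16: filterByExpr (minimum count 10) left 16495 of 46078 genes, TMM factors scaled the libraries, and the quasi-likelihood F-test was adjusted by Benjamini-Hochberg over all genes tested with a threshold of 0.05. A model with terms for condition and experiment (5 residual degrees of freedom) gave those 2 comparisons, and effects within experiments and their interaction came from a model of the 4 groups of condition and experiment (4 residual degrees of freedom). Levels are CPM on TMM-scaled totals with mean ± SD, except Xist and marker sums, which use unscaled totals. Log2 CPM for likeness used a prior count of 2. Steps were tested on simulated counts. Alternatives were DESeq2 1.42.0, limma-voom (limma 3.58.1), RLE and upper-quartile factors, no filter, each library left out, libraries that stand apart left out, a replicate block, other covariates and smaller fits. The genes named besides the members were the 3 most abundant of each list (1 of them is not reported here), any list gene past the threshold, and the 10 and 3 genes most like the subunits and Fos. Genes named for a DESeq2 call alone were chosen after their values were seen. Figures were drawn with matplotlib.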

Additional observations from a re-analysis of the deposited data

Results flagged for a closer look

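Over 25 genes in 2 conditions, 50 groups of 4 libraries were examined for a library that stood far from the other 3. In 1 of them the gap was wide enough: Krt6a stood at 1302 CPM in Treg-depleted replicate 2, against 194, 107 and 71.1 CPM in Treg-depleted replicates 1, 3 and 4. Chance alone marks about 1 in 20 such groups. None of the 7 AP-1 subunits had such a library in either condition, including Treg-sufficient replicate 2.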

How the results depend on the processing

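The log2 fold change between conditions stayed positive for all 7 genes under each of 18 alternatives, as it did in experiment 1 under each of 17. Counts past the threshold were less steady, and the cause was not tested. Pairs of gene counts are given as higher and lower. Over both experiments, against 0 and 0 genes and 0 members, DESeq2 gave 58 and 41 genes and 1 member, and no filter on low counts 339 and 481 genes and 5 members. In experiment 1, against 37 and 63 genes and 2 members, DESeq2 gave 229 and 476 genes and 4 members, limma-voom 39 lower genes, no filter 393 and 759 genes and 6 members, and a fit of only its 4 libraries 0 and 0 genes and 0 members. There, leaving out 1 library gave 0 to 142 higher and 0 to 300 lower genes and 0 to 4 members. Leaving out both libraries with Xist reads gave 135 and 352 genes and 3 members, and leaving out both with counts in the fewest genes, chosen after seeing the data, gave 205 and 365 genes. In experiment 2, against 0 and 0, DESeq2 gave 1 and 1 genes, and no filter 77 and 55 genes and 1 member. For the interaction, against 0 and 0 genes and 0 members, the values were 134 and 52 genes and 2 members by DESeq2, 383 and 151 genes and 5 members with no filter, 0 to 9 lower genes and 0 to 1 members with 1 library left out, and 78 and 11 genes without the Xist libraries. Between experiments, against 149 and 119 genes and 0 members, they were 1119 and 908 genes by DESeq2, 1282 and 1161 genes and 1 member with no filter, 0 to 366 and 0 to 285 genes with 1 library left out, 0 and 2 without the Xist libraries, 0 and 0 without those with the fewest genes, and 638 and 420 genes and 1 member as a mean over 4 groups. With upper-quartile factors the calls of Ccnd1 and Ccl2 between experiments ended (adjusted p = 0.0532 and 0.0506 by edgeR).

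Directions that turned are given here with the range over the 8 fits that each leave out 1 library. In experiment 2, Jund was -0.20 to 0.016, turning without Treg-sufficient replicate 4, and Fosl1 -0.13 to 0.60 and Junb -0.012 to 0.19, turning without Treg-depleted replicate 3. For the interaction, Fosl2 was -0.18 to 0.22, with -0.18 on leaving out Treg-sufficient replicate 3 and -0.024 and -0.0091 on leaving out Treg-depleted replicates 1 and 3, and -0.13 without the libraries with the fewest genes. Between experiments the ranges were -0.19 to 0.56 for Fos, -0.49 to 0.35 for Fosb, -0.070 to 0.37 for Jun, -0.12 to 0.039 for Fosl2 and -0.63 to 0.036 for Junb. There Fos, Fosb and Jun turned without Treg-sufficient replicate 2 and, at -0.26, -0.58 and -0.062, without the Xist libraries, Fosb also at -0.29 without Treg-sufficient replicate 4 and at -0.011 with upper-quartile factors, and Fosl2 at 0.082 without the libraries with the fewest genes.

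The titles carry letters A to D in both conditions. Deviations from the condition means correlated at 0.179, 0.130, 0.0941 and 0.314 for same-lettered libraries, and A and D but not B and C matched their own letter best, so the letters were not taken as pairs. With the letter as a replicate block the counts were 0 genes and 0 members over both experiments, 1 higher gene, 1 lower gene and 0 members in experiment 1, and 0 and 0 in experiment 2 and for the interaction.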
